A study of Mus musculus with 8 samples.

Results

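The genes described here are 7 markers of astrocyte identity and reactivity, Gfap, Aqp4, S100b, Fabp7, Lcn2, Steap4 and Sphk1, chosen by gene name from a deposited comparison of astrocyte cultures without and with Spp1, the osteopontin gene. They are 7 of the 3624 genes in that table. Total RNA was sequenced from 4 samples of genotype Spp1-/- (strain B6.129S6(Cg)-Spp1tm1Blh/J) and 4 wild-type samples (C57BL/6), each a primary astrocyte culture from retinas and optic nerves taken at postnatal day 1 to 3. All cultures of both genotypes were grown in DMEM/F12 with 10% fetal bovine serum, and no agent was added per the labels. No label ties a sample to a litter, an animal or a separate culture, so the deposited standard errors may measure technical spread only. The 7 genes were picked with this same comparison in view, so their fold changes are given as a description, without a test.

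Astrocytes are the main supporting glia of the central nervous system, and in the retina they sit on the nerve fibre layer and enter along the optic nerve. Their identity is read from proteins such as the filament protein Gfap, the water channel Aqp4, the calcium-binding protein S100b and the fatty acid carrier Fabp7. After injury or inflammation astrocytes become reactive and switch on a further set of genes. In mouse brain, Lcn2 and Steap4 were raised by both systemic lipopolysaccharide and ischaemia (a pan-reactive set), whereas Sphk1 belongs to a set raised by ischaemia and named A2, beside a lipopolysaccharide set named A1. Osteopontin, the product of the deleted gene, is a secreted phosphoprotein that acts as a matrix protein and as a cytokine.

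The deposited table held 1 row per gene with a mean normalized count, a log2 fold change and its standard error, and 0 columns of values for single samples, so sequencing depth is unknown and no value can be shown sample by sample. Levels per genotype are therefore implied means, worked out from the mean count and the fold change with groups taken as equal in size. Every gene in the table had an adjusted p of 0.0499 or less and a log2 fold change of 0.58 or more in size, so a gene outside the table either failed a limit or went untested, and is given no direction. About 16600 genes were tested, of which 21.8% are in the table, 12% as higher and 9.84% as lower in the knockout. Every count of listed genes below is to be read beside these background shares. Spp1 itself stood at -5.90 on the log2 scale (deposited standard error 0.11) in the authors' deposited table, an implied mean of 441 normalized counts in knockout and 26271 in wild type, and this sign set the direction knockout over wild type for all genes. The Y-linked genes Ddx3y and Kdm5d were higher in the knockout by 13.26 (1.03) and 5.91 (0.25) in the authors' deposited table, so the sex of the pups and the genotype cannot be told apart for any gene below. The same holds for strain background. In bulk RNA, fewer cells of a type and less RNA per cell cannot be told apart either.

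All 7 genes were in the table, 4 higher and 3 lower in the knockout (background 12% and 9.84% of tested genes), a count fixed by how they were picked. Lcn2, Steap4, Aqp4 and Gfap were higher, and Fabp7, Sphk1 and S100b were lower. The reactive genes Lcn2 and Steap4 moved by about 10-fold and 7.79-fold, but Sphk1, of the A2 set, by only 2.39-fold. The identity genes among the 7 moved by 1.58-fold (Gfap, also pan-reactive) to 3.52-fold (S100b) in either direction. Reactive and identity genes were thus not separated by size of change. The identity genes themselves were split, with Gfap and Aqp4 up and S100b and Fabp7 down. In absolute size the 7 fold changes had a median of 1.26 on the log2 scale, against 1.14 for all genes of the table. The 95% intervals of 6 of the 7 lay wholly beyond the 0.58 limit of the table, and that of Gfap reached below it.

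**Figure D1:**
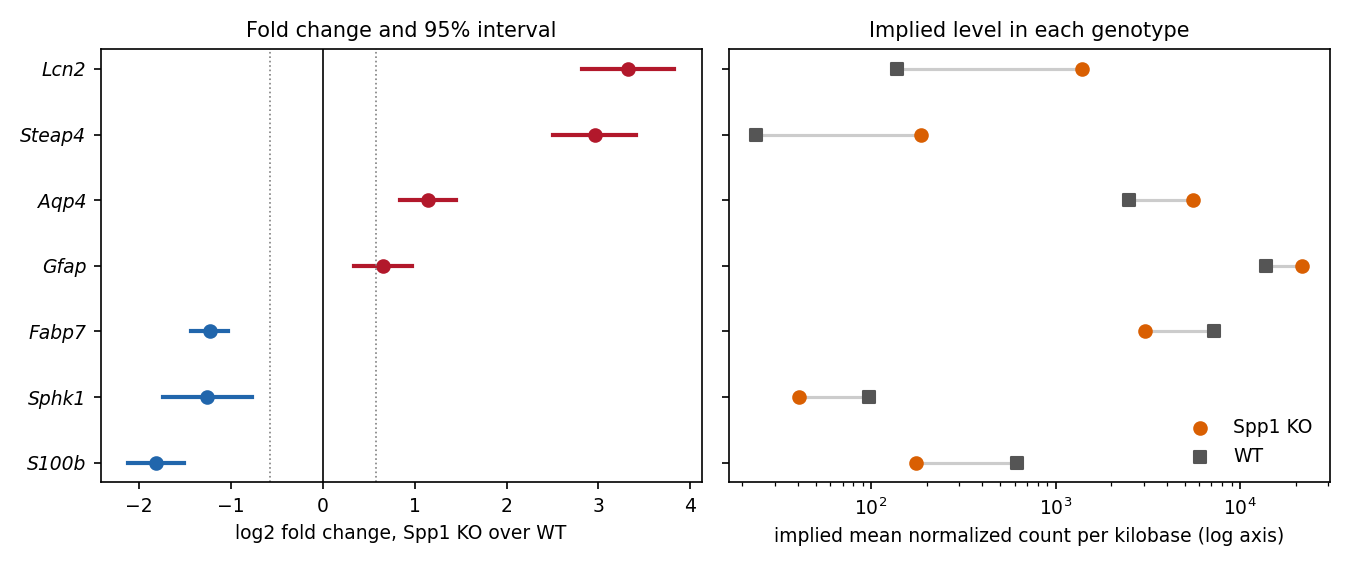
The 7 genes, with the log2 fold change (knockout over wild type) and its 95% interval on the left (dotted lines at 0.58 either side of 0) and the implied mean normalized count per kilobase of exon in knockout (circles) and wild type (squares) on a log axis on the right. Lcn2 and Steap4 lie near 3 on the log2 scale, and Gfap, at 0.66, has an interval that crosses the dotted line.

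Lcn2 encodes lipocalin 2, a secreted carrier of iron-binding siderophores that is induced in reactive astrocytes and in other cells during inflammation. The authors' deposited table gave Lcn2 a mean of 1996 normalized counts and 3.33 as log2 fold change (deposited standard error 0.26). That corresponds to 3630 normalized counts in knockout and 362 in wild type, worked out from the authors' deposited table, a 10.02-fold higher level with a 95% interval from 7.09-fold to 14.2-fold. By size of rise it ranked 154th of the 1991 higher genes, so Lcn2 was among the larger rises of the table without being at its head. The gene (ENSMUSG00000026822) lies on the minus strand of chromosome 2 at 32384633 to 32388252 in GRCm38 and overlaps no other annotated gene.

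Steap4 encodes a metalloreductase of the STEAP family, which reduces iron and copper at membranes. In the authors' deposited table it had a mean of 331 normalized counts and 2.96 as log2 fold change (deposited standard error 0.23). The implied means were 587 normalized counts in knockout and 75.4 in wild type, a 7.79-fold higher level with a 95% interval from 5.70-fold to 10.7-fold. On the log2 scale the 95% interval of Lcn2, from 2.83 to 3.83, overlaps that of Steap4, from 2.51 to 3.41. Steap4 (ENSMUSG00000012428) lies at 7960457 to 7982213 on chromosome 5 (GRCm38, plus strand), with no overlapping gene. It is the only member on the chromosome of Spp1, with starts 96.5 Mb apart.

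Since Lcn2 and Steap4 rose together, the 250 bases before their RefSeq transcription starts (GRCm38.p6) are shown, written 5′ to 3′ on the gene's own strand. Capitals mark matches, on either strand, to 4 short motifs. These are TATAAA (the TATA box), CCAAT (the CCAAT box), TTCNNNGAA (the STAT form) and TTGCNNAA (the C/EBP form). The Lcn2 window is chr2:32387740-32387989 on the minus strand and the Steap4 window chr5:7960222-7960471 on the plus strand. RefSeq starts differ from the outer ends of the gene spans given above. The whole Lcn2 window and the last bases of the Steap4 window lie inside those spans, so positions hold for the RefSeq start only.
Lcn2: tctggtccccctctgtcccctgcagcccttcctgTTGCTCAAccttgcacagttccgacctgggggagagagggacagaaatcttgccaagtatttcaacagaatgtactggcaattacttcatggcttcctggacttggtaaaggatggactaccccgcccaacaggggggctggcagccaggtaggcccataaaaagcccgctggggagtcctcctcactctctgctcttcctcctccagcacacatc
Steap4: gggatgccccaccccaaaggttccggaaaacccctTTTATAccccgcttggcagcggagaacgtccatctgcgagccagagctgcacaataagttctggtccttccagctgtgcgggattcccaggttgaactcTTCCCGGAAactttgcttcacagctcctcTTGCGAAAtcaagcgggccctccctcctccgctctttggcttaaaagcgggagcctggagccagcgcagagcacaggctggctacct
Both windows held a TTGCNNAA match, from -216 to -209 in Lcn2 and from -87 to -80 in Steap4, counting back from -1 at the base before the start. This form is present in 9.56% of 32851 RefSeq windows of the same length. The Steap4 window also held TTCNNNGAA from -116 to -108, a form found in 7.02% of windows, and the Lcn2 window did not. Steap4 had a TATAAA match on the opposite strand from -215 to -210, and 12.4% of windows hold that form. No marked match overlapped a match to another motif in these windows. A match of letters is a description of the window and not a binding site.

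Sphk1 encodes sphingosine kinase 1, which makes the signalling lipid sphingosine-1-phosphate (S1P). Unlike Lcn2 and Steap4, it was lower in the knockout. The authors' deposited table gave a mean of 330 normalized counts and -1.26 as log2 fold change (deposited standard error 0.25). Implied means were 194 normalized counts in knockout and 465 in wild type, a 2.39-fold lower level in knockout with a 95% interval from 1.71-fold to 3.34-fold. Sphk1 (ENSMUSG00000061878) lies at 116530925 to 116536674 on chromosome 11 (GRCm38, plus strand) and shares 2153 bases with Gm29292, an antisense gene on the opposite strand. Whether reads were counted by strand is not stated in these sources, so reads of a gene and of its antisense partner cannot be told apart here or below.

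Gfap encodes the intermediate filament protein that marks astrocytes and accumulates in reactive ones. By mean normalized count, 75119, it ranked 2nd of the 3624 genes in the authors' deposited table. Its fold change was the smallest of the 7, 0.66 on the log2 scale (deposited standard error 0.16) in the authors' deposited table. The implied means were 91923 normalized counts in knockout and 58314 in wild type, a 1.58-fold higher level with a 95% interval from 1.26-fold to 1.97-fold. The log2 interval ran from 0.34 to 0.98, so the estimate is just inside the 0.58 limit of the table. Gfap (ENSMUSG00000020932) lies on the minus strand of chromosome 11 at 102887336 to 102900912 in GRCm38, and the non-coding gene Gm26668 covers all 13577 bases of it on the opposite strand.

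Aqp4 encodes the water channel of astrocyte endfeet, the processes that abut vessels and the pial surface. The authors' deposited table listed a mean of 25052 normalized counts, the 12th highest of all listed genes, and 1.15 as log2 fold change (deposited standard error 0.16). This gives 34520 normalized counts in knockout and 15585 in wild type, a 2.21-fold higher level with a 95% interval from 1.79-fold to 2.74-fold. The log2 interval of Aqp4, from 0.84 to 1.45, overlaps that of Gfap. Aqp4 (ENSMUSG00000024411) lies on the minus strand of chromosome 18 at 15389496 to 15410982 in GRCm38 and shares 7896 bases with an antisense gene on the opposite strand.

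Fabp7, also known as brain lipid-binding protein, carries fatty acids in radial glia and immature astrocytes, and is also made by Schwann cell precursors and retinal progenitors. It had a mean of 6424 normalized counts and -1.23 as log2 fold change (deposited standard error 0.10, the smallest among the 7) in the authors' deposited table. Implied means were 3836 normalized counts in knockout and 9011 in wild type, a 2.35-fold lower level in knockout with a 95% interval from 2.04-fold to 2.70-fold. Fabp7 (ENSMUSG00000019874) lies at 57784881 to 57788450 on chromosome 10 (GRCm38, plus strand), with no overlapping gene.

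S100b encodes a calcium-binding protein of astrocytes that Schwann cells and oligodendrocyte lineage cells also make. Among the 7 it showed the largest fall, to -1.82 on the log2 scale (deposited standard error 0.15) and a mean of 586 normalized counts in the authors' deposited table. The implied means were 259 normalized counts in knockout and 913 in wild type, a 3.52-fold lower level in knockout with a 95% interval from 2.85-fold to 4.34-fold. Its interval does not overlap that of Fabp7. S100b (ENSMUSG00000033208) lies at 76253853 to 76261159 on chromosome 10 (GRCm38, plus strand) and shares 1731 bases with Dip2a, a protein-coding gene on the opposite strand that is not in the deposited table.

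Fabp7 and S100b fell together, and their 250 bases before the RefSeq start are shown for comparison with the windows of Lcn2 and Steap4. No window is shown for Gfap and Aqp4, which also rose, so the windows do not compare risen with fallen genes as groups. The window of Fabp7 is chr10:57784673-57784922 and that of S100b chr10:76253586-76253835, both on the plus strand of GRCm38.p6, with capitals for the same 4 motifs. The last bases of the Fabp7 window lie inside the gene span given above.
Fabp7: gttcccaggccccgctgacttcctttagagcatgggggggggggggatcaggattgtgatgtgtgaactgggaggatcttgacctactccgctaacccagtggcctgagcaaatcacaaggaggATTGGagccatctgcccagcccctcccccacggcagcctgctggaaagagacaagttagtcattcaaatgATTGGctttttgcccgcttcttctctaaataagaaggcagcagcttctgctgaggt
S100b: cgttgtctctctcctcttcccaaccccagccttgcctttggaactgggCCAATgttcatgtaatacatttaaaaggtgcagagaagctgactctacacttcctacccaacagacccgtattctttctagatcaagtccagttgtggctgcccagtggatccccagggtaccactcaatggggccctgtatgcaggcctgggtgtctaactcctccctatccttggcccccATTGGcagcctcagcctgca
Each of these windows held 2 matches to CCAAT, a form present in 33.8% of all windows, and no match to the STAT or C/EBP form. In Fabp7 the CCAAT matches were both on the opposite strand, from -126 to -122 and from -56 to -52. In S100b they lay from -202 to -198 on the gene's strand and from -20 to -16 on the other. The windows of Lcn2 and Steap4 held no CCAAT. Absence of these letters from 250 bases says nothing about any factor.

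**Figure D2:**
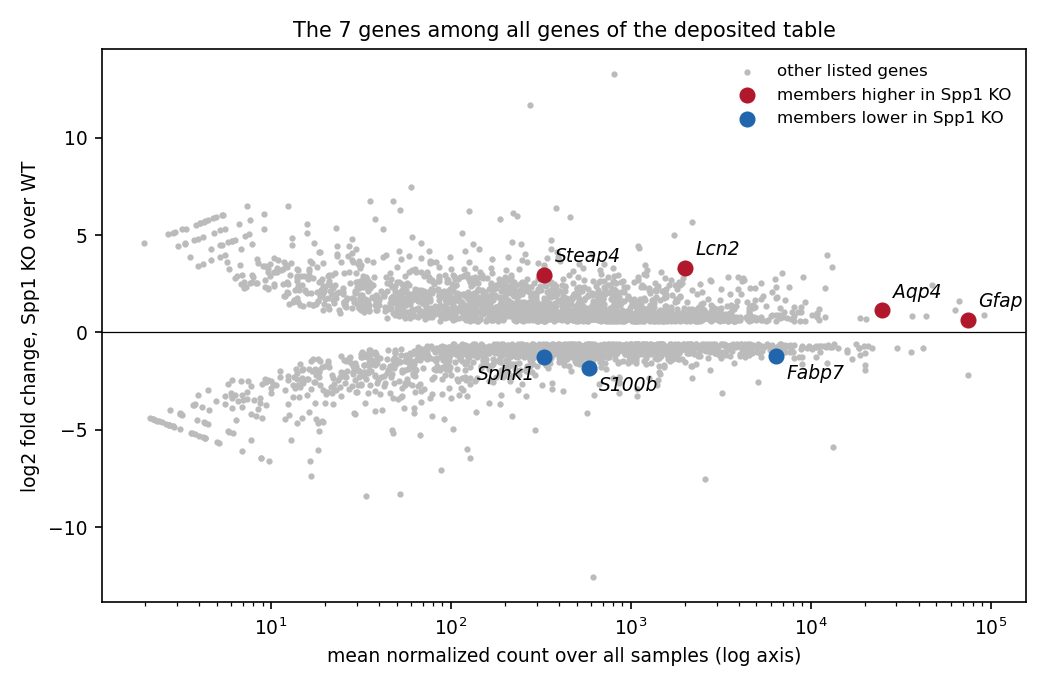
Mean normalized count over all samples (log axis) against the log2 fold change of knockout over wild type for the genes of the deposited table (grey), with the 7 genes in colour. Gfap and Aqp4 sit at the far right with fold changes of 0.66 and 1.15, while Steap4 and Sphk1 have nearly the same mean count (331 and 330) and opposite directions.

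Levels of different genes were compared per kilobase of exon, using the exonic length summed over all annotated isoforms. In knockout cultures the order by implied normalized counts per kilobase was Gfap (21793), Aqp4 (5538), Fabp7 (3069), Lcn2 (1384), Steap4 (186), S100b (175) and Sphk1 (40.7). In wild-type cultures it was Gfap (13825), Fabp7 (7209), Aqp4 (2500), S100b (615), Lcn2 (138), Sphk1 (97.4) and Steap4 (23.9). Gfap led in both genotypes, Aqp4 and Fabp7 exchanged places, and Steap4 stood last in wild type but above S100b and Sphk1 in knockout. Steap4 and S100b in knockout differed by 11.3 counts per kilobase, less than the implied standard deviation of a single sample for either gene (39.6 and 27.3). Lcn2 and Sphk1 in wild type differed by 40.7, which is 0.97 of their combined standard deviation. All other neighbours in either order were more than 2 combined standard deviations apart. These are standard deviations of single samples, and the error of a mean of 4 samples is smaller. A gap below them therefore does not show that 2 levels are equal. The level of Gfap was 15.7 times that of Lcn2 in knockout and 100.1 times that of Lcn2 in wild type, on this per-kilobase scale.

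The deposited standard errors also carry the spread between samples. This spread was worked out under a negative binomial model with 4 samples per genotype. It is given as a coefficient of variation with counting noise taken off, so a single sample varies somewhat more. The value was 9.96% for Fabp7, 14.3% for S100b, 15.3% for Aqp4, 15.9% for Gfap, 20.9% for Steap4, 23.4% for Sphk1 and 24.7% for Lcn2. The median over the 2673 listed genes with a mean of at least 100 was 19.0%. Gfap, Aqp4, S100b and Fabp7 lay below that median, and Lcn2, Steap4 and Sphk1 above it. The median was not matched for mean count, which ran from 330 for Sphk1 to 75119 for Gfap, so a difference in steadiness cannot be read from this split. Single outlying samples cannot be seen in such values.

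Of the wider list of 30 astrocyte identity genes, 13 were in the table, 8 higher and 5 lower, and both this list and the whole table had a median log2 fold change of 0.66. The list median is the value of Gfap itself, which was picked. Without the 4 members on this list, 6 were higher and 3 lower (median 0.70). Gjb6, a connexin of mature astrocytes, had the largest rise at 4.28 (deposited standard error 0.37) in the authors' deposited table, at a low level of 275 implied counts in knockout and 14.2 in wild type. Aldoc, a brain aldolase of astrocytes, and Ndrg2 rose by 1.18 (0.21) and 0.91 (0.17), and Nfia, a transcription factor of astrocyte development, by 0.70 (0.21) in the authors' deposited table. Among the lower genes, the GABA transporter gene Slc6a11 stood at -1.49 (0.22), Pax2, a transcription factor of optic nerve and immature retinal astrocytes, at -0.98 (0.26), and Mfge8, a bridging protein for phagocytosis, at -0.97 (0.15) in the authors' deposited table. The other 17 genes, among them Aldh1l1, Slc1a3, Glul and Sox9, were not in the table.

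Of 13 pan-reactive genes, 8 were in the table, 7 higher and 1 lower (median log2 fold change 1.01). Without Lcn2, Steap4 and Gfap, which were picked, 5 of 10 were in the table, 4 higher and 1 lower (median 0.80). Lcn2, Steap4 and Gfap are 3 of the 7 that rose. The others were S1pr3, an S1P receptor, at 1.24 (deposited standard error 0.11), the ferroxidase gene Cp at 1.23 (0.16), the oncostatin M receptor gene Osmr at 0.80 (0.14) and the chemokine gene Cxcl10 at 0.67 (0.22) in the authors' deposited table. Timp1, an inhibitor of metalloproteinases, fell by 1.05 (0.29) in the authors' deposited table. Vim, Cd44, Serpina3n, Hspb1 and Aspg were not in the table. The log2 fold changes of Lcn2 and Steap4 were larger than those of the 6 other pan-reactive genes in the table, which were at most 1.24 in size.

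All 9 listed genes of the 13 in the A1 set were higher (median log2 fold change 1.36, background 12% of tested genes). Serping1, the C1 inhibitor gene, rose by 2.35 (deposited standard error 0.18) and the complement gene C3 by 3.98 (0.24) in the authors' deposited table. Srgn, Iigp1, Gbp2, H2-D1, Psmb8, H2-T23 and Ggta1 had log2 fold changes from 1.89 down to 1.14 in the authors' deposited table. Of the 12 genes of the A2 set, 4 were in the table, 2 higher and 2 lower. Without Sphk1, which was picked, it was 3 of 11, 2 higher and 1 lower. Cd14, a co-receptor for lipopolysaccharide, rose by 2.13 (0.14) and Tgm1, a transglutaminase, by 0.68 (0.17), while Clcf1, a cytokine of the interleukin 6 family, fell by 0.79 (0.32) beside Sphk1 in the authors' deposited table. Ptx3, Ptgs2, Emp1, Tm4sf1, S100a10, Cd109, B3gnt5 and Slc10a6 were not in the table. Whether the A1 and A2 sets differ in direction was not tested. Some A1 genes, such as C3 and Srgn, are also made by macrophages, whose markers rose as given below.

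**Figure D3:**
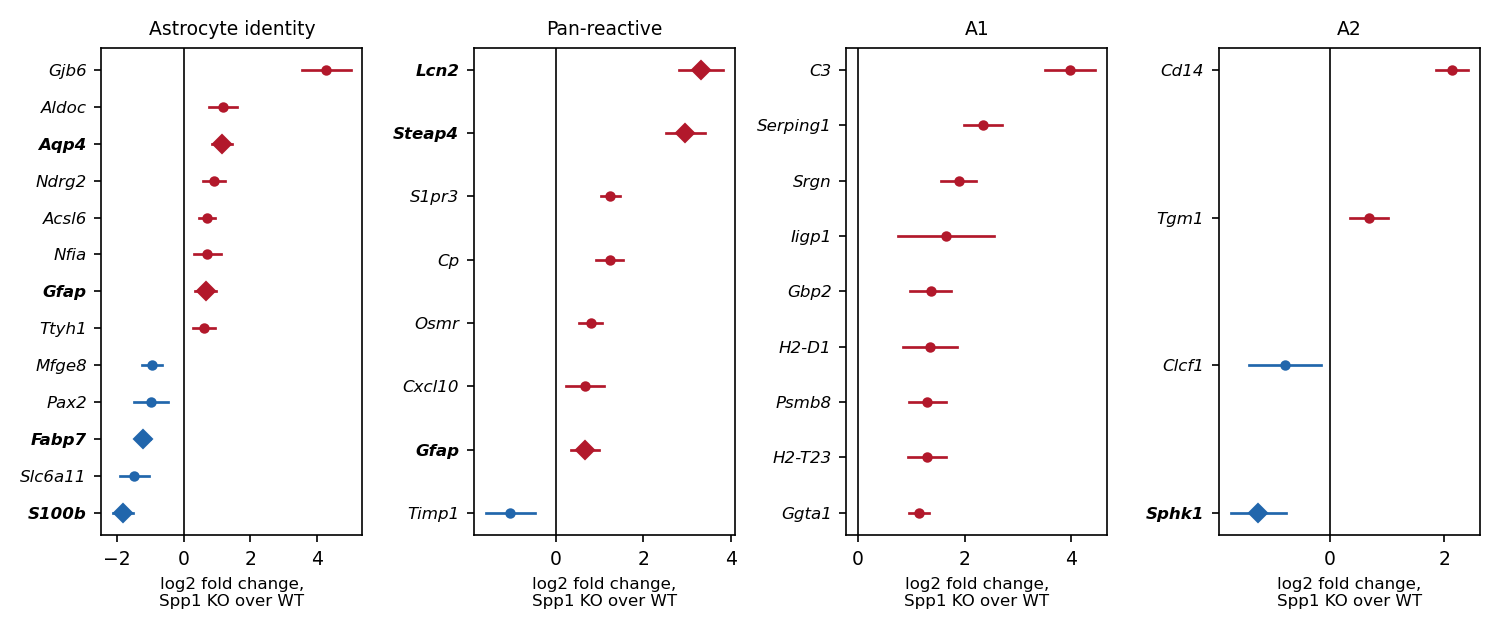
Log2 fold changes (knockout over wild type) and their 95% intervals for the listed genes of the astrocyte identity, pan-reactive, A1 and A2 sets, with diamonds and bold names for the genes described here and a separate axis in each panel. The identity and A2 panels hold genes on both sides of 0, the A1 panel only genes above it.

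Among the partners of Lcn2 and Steap4 in iron handling, most listed genes were higher. Of 26 genes for STEAP enzymes, lipocalin and iron handling, 13 were in the table, 11 higher and 2 lower (median log2 fold change 1.16). Without Lcn2 and Steap4, which were picked, 11 of 24 were in the table, 9 higher and 2 lower (median 1.05). The background is 12% higher and 9.84% lower among tested genes. Steap3, the endosomal ferrireductase of the transferrin cycle, rose by 1.81 (deposited standard error 0.14), and Steap1 fell by 0.71 (0.25) in the authors' deposited table. Fth1, the heavy chain of the iron store ferritin, rose by 1.16 (0.13), the transferrin gene Trf by 1.18 (0.21), the metal importer gene Slc39a8 by 1.31 (0.17) and Hfe, a regulator of iron sensing, by 1.05 (0.12) in the authors' deposited table. Tfrc, the transferrin receptor, Hmox1, which degrades haem, and Slc11a1, a metal transporter of phagosomes, rose by 0.76, 0.77 and 1.00 in the authors' deposited table. The ferroxidase gene Heph fell by 0.72 (0.20) in the authors' deposited table. Slc22a17, a receptor for lipocalin 2, and Slc40a1, the iron exporter, were not in the table.

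Around Sphk1, the receptors of its product were divided, with S1pr3 and S1pr1 higher and S1pr5, like Sphk1, lower. S1pr3 and S1pr1, the most abundant of the 3 listed S1P receptors per kilobase, rose by 1.24 (deposited standard error 0.11) and 0.89 (0.11) in the authors' deposited table. S1pr5, a receptor of oligodendrocytes, fell by 3.48 (1.16) in the authors' deposited table, with implied means of 1.33 normalized counts in knockout and 14.8 in wild type. The lipid phosphatase gene Plpp1 fell by 1.21 (0.18), while the ceramide kinase gene Cerk and the ceramidase gene Asah2 rose by 0.79 (0.12) and 0.82 (0.32) in the authors' deposited table. In all, 7 of 36 genes of S1P and ceramide metabolism were in the table, 4 higher and 3 lower. Without Sphk1 it was 6 of 35, 4 higher and 2 lower. Either share is near or below the 21.8% of all tested genes (12% higher, 9.84% lower), so the count does not set this list apart. Sphk2, the other sphingosine kinase gene, and the lyase gene Sgpl1 were not in the table.

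S100b fell with other members of its family. Of 17 genes, the S100 family with the receptor gene Ager, 5 were in the table, each of them lower (median log2 fold change -1.02). Without S100b, which was picked, 4 of 16 were in the table, all lower (median -0.95), beside 9.84% lower among tested genes. S100a4, S100a16, S100a6 and S100a11 stood at -1.04 (deposited standard error 0.29), -1.02 (0.22), -0.88 (0.24) and -0.79 (0.16) in the authors' deposited table. S100a11 and S100a6 are expressed in many cell types, and per kilobase they were more abundant than S100b, at 10097 and 3050 implied counts in knockout against 17438 and 5623 in wild type. S100a8 and S100a9, which neutrophils make in large amounts, were not in the table.

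The listed relatives of Fabp7 moved in both directions. Fabp5, a carrier found in glia and macrophages, rose by 1.20 (deposited standard error 0.21), and Fabp4, a carrier of fat cells, macrophages and endothelium, by 2.85 (0.31) in the authors' deposited table. Pmp2, the carrier of peripheral myelin, fell by 4.08 (0.80) in the authors' deposited table, to 1.82 implied counts in knockout against 30.7 in wild type. The retinoid carriers Crabp1 and Crabp2, of the same fold, stood at -1.40 (0.28) and -1.18 (0.35) in the authors' deposited table. Of the 14 genes, Fabp7 included, 2 were higher, 4 lower and 8 not in the table. Without Fabp7, 2 of 13 were higher and 3 lower, beside 12% and 9.84% of tested genes.

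The listed relatives of Gfap were lower, and those of Aqp4 moved in both directions. Of 14 genes for intermediate filaments and their linkers, Gfap was the only one higher, and 3 neuronal filament genes, Ina, Nefl and Nefm, stood at -3.06 (deposited standard error 0.63), -2.41 (0.62) and -0.86 (0.34) in the authors' deposited table. Without Gfap, 3 of 13 genes of that list were in the table, beside 21.8% of all tested genes (9.84% lower). Vim and Nes, which astrocytes also express, were not in the table. Of 22 aquaporin and dystrophin complex genes, 3 were listed, Aqp4 among them, beside 21.8% of all tested genes. Aqp1, a water channel of choroid plexus and other epithelia, rose by 4.43 (0.22) in the authors' deposited table, to 2101 implied counts in knockout against 97.2 in wild type. Sgcd, a sarcoglycan, fell by 1.00 (0.40) in the authors' deposited table. Kcnj10 and Dag1, which encode partners of Aqp4 at endfeet, were not in the table.

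**Figure D4:**
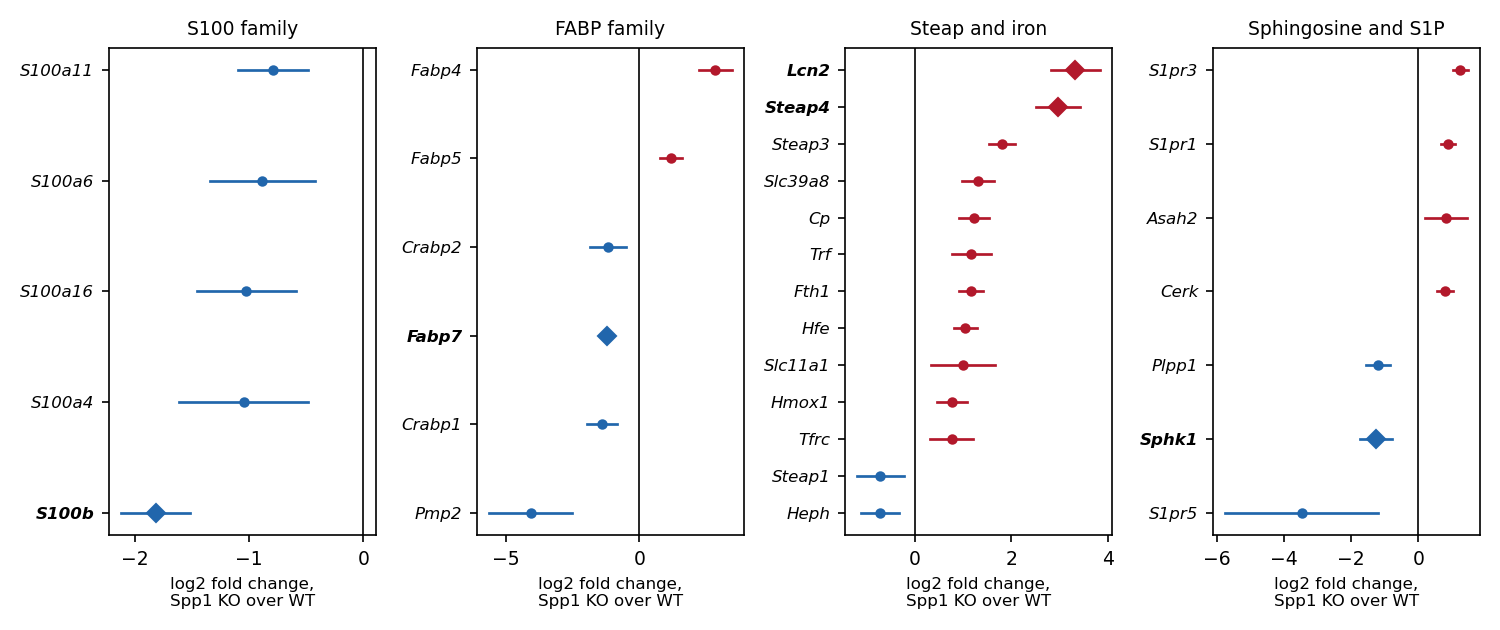
Log2 fold changes (knockout over wild type) and their 95% intervals for listed relatives and partners of S100b, Fabp7, Lcn2 with Steap4, and Sphk1, with diamonds for the genes described here and a separate axis in each panel. All 5 listed S100 genes lie below 0, S100b among them. Of the 13 listed Steap and iron genes 11 lie above 0, Lcn2 and Steap4 among them.

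An inflammatory list was also tallied, made up of genes for interleukin 1, tumour necrosis factor, NF-kappaB and STAT3 signalling, inputs that can induce Lcn2 and Steap4, together with the 3 C1q complement genes, which are not part of that signalling. Of its 39 genes, 20 were in the table, 16 higher and 4 lower (median log2 fold change 1.17). The C1q genes are 3 of the 16 and are also counted among the macrophage markers. The interleukin 6 family receptor genes Il6st, Lifr and Il6ra rose by 0.80 (deposited standard error 0.15), 0.80 (0.22) and 1.38 (0.15), and the ligand gene Cntf by 1.33 (0.18) in the authors' deposited table. The ligand gene Lif and the receptor genes Cntfr and Il1rap fell by 1.39 (0.34), 0.80 (0.26) and 0.81 (0.14) in the authors' deposited table. Il1b rose by 2.48 (0.77) in the authors' deposited table at a level of only 35.1 implied counts in knockout and 6.27 in wild type. Stat3, Nfkb1, Rela, Socs3 and Cebpd were not in the table. Several genes of this list, such as Tlr2, Cd14 and the C1q genes, are strongly expressed by macrophages.

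Of 30 regulators of glial genes, 10 were in the table, 3 higher and 7 lower (median log2 fold change -0.71). Sox10, a factor of oligodendrocytes and Schwann cells, stood at -5.00 (deposited standard error 0.78), Sox8 at -1.20 (0.11), and Hes1, a Notch target, at -1.03 (0.26) in the authors' deposited table. Nfia, Rbpj, the DNA-binding partner of Notch, and Bmp7, a growth factor that promotes astrocyte fate, rose by 0.70, 0.73 and 1.00 in the authors' deposited table.

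Markers of other cell types moved in the same comparison, and their part in the results above was not tested. All 23 listed of 25 microglia and macrophage markers were higher, with log2 fold changes from 0.91 to 4.36, and their implied counts summed to 201888 in knockout and 42958 in wild type, a ratio of 4.70. Lyz2, the lysozyme gene of macrophages, stood at 60365 implied counts per kilobase in knockout and 11144 in wild type. Gfap stood at 21793 in knockout and 13825 in wild type, so Lyz2 was the higher in knockout cultures. In wild type the pair differed by less than their combined implied standard deviation of single samples, which is wider than the error of a mean. Tmem119 and Cd163 were not in the table. The rises of Lcn2, Steap4 and Aqp4, 3.33, 2.96 and 1.15, lie inside the range of these markers, that of Aqp4 near its lower end. The rise of Gfap, 0.66, lies below it. Of 16 fibroblast and meningeal markers, 12 were higher and 1 lower, with sums of 113302 in knockout and 41935 in wild type. Of 14 neutrophil genes, which also include Lcn2, only Csf3r (1.35, deposited standard error 0.30) was listed beside it in the authors' deposited table, and the granule genes Ngp, Camp, Mpo and Elane were not.

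On the side of Fabp7 and S100b, all 10 other listed Schwann cell markers of 14 were lower, with log2 fold changes from -7.05 to -1.03, and their implied counts summed to 1181 in knockout and 5860 in wild type. Foxd3, a neural crest factor, and Mag, a myelin glycoprotein, were near 0 in knockout, with implied means of 1.33 and 2.95 normalized counts against 176 and 254 in wild type. Of 18 oligodendrocyte lineage markers, 14 were lower and 2 higher, with sums of 10716 in knockout and 28074 in wild type. Among 15 Müller glia and retinal progenitor markers other than Fabp7, 9 were listed and all 9 were lower, with sums of 32688 in knockout and 59126 in wild type. Ccnd1, a cyclin gene, alone gave 30565 and 53997 of these counts, so the sums mostly follow that gene. The 11 listed of 18 neuron markers were also lower, with sums of 8615 in knockout and 19052 in wild type. The falls of Fabp7 and S100b, -1.23 and -1.82, lie inside the range of each of these lists, that of Fabp7 near the small end of the Schwann cell falls. The oligodendrocyte list runs from -8.28 to 2.93, so lying inside it says little.

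**Figure D5:**
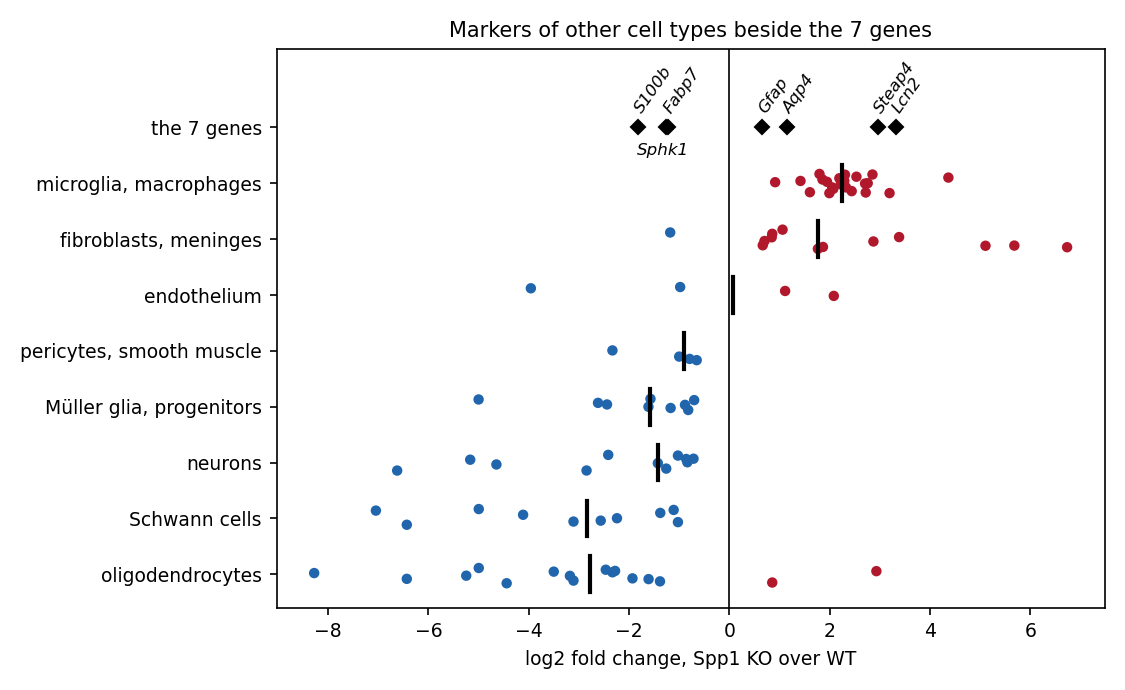
Log2 fold changes (knockout over wild type) for listed markers of other cell types (points, with vertical bars for the list median and vertical jitter only for legibility) below the 7 genes (diamonds, top row). Microglia and macrophage markers all lie above 0, and Müller glia, neuron and Schwann cell markers all lie below it.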

How the data were processed

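Total RNA of 4 Spp1 knockout and 4 wild-type astrocyte cultures was sequenced. Tools named in the submitters' processing notes are STAR 2.7, CASAVA 1.8 and DESeq2 1.30.1, with GRCm38 as build and no role for each. For annotation, counting and read filters, nothing is given in the sources used here. Per the file headers, the authors deposited for each gene a mean normalized count (a signal, averaged over samples of both genotypes), a log2 fold change and its error, a Wald score, and the p-value before and after adjustment. With 0 columns per sample there was no test across samples and no depth. The table was filtered before deposit at an adjusted p of 0.05 and a log2 fold change of 0.58 in size. Small changes are therefore missing, and estimates close to the limit lean high. The number of genes tested was worked out by comparing adjusted with raw p for the 20 smallest p-values above 0.

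Implied means, 95% intervals (normal quantile times the standard error) and spreads were computed with Python 3.11.15, pandas 2.3.3 and scipy 1.17.1 and tested on simulated data. The spread takes equal library sizes. Coordinates and exonic lengths are from GENCODE M21, and windows before starts from RefSeq (GRCm38.p6). Sphk1 has 5 such windows, so none is shown. For Aqp4 0 windows were used, and the 1 window of Gfap was not marked or shown. The 7 genes and the 21 gene lists were chosen with earlier results of these data known. Named genes were the 7, Spp1, up to 4 genes per list with the largest changes, and all listed genes of the reactive, S100, fatty acid carrier, S1P and Steap groups. For the lists of other cell types and of inflammatory signalling some or all of these are given only as counts and ranges, and a few other genes were named after their values were seen. A few genes of the lists as first drawn up are not reported here and are in no count. An NF-kappaB motif was also searched in the windows and left out after its matches were seen. The set of 4 motifs shown was therefore settled with matches known. No share over all windows is given for the omitted motif, and nothing is read from it.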

Additional observations from a re-analysis of the deposited data

How the results depend on the processing

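Counts of the 7 genes stayed within 1.5 times under 4 stricter limits: a log2 fold change of 1 or more in size, a mean count of at least 100, an adjusted p of at most 0.001, and a 95% interval wholly beyond 0.58. Gfap is the 1 gene lost, under the first and the last of these. At a log2 fold change of 1 or more in size, the identity list held 3 higher and 3 lower genes, the pan-reactive list 4 higher and the A2 list 1 higher and 1 lower. At an adjusted p of at most 0.001 the pan-reactive list held 0 lower and the A2 list 1 lower. With intervals beyond 0.58, the identity list held 3 higher, the pan-reactive list 4 higher and 0 lower, and the A2 list 1 higher and 1 lower. Leaving out genes shared between lists, the identity list held 5 higher and 2 lower, the pan-reactive list 1 higher, and the A2 list 1 higher and 0 lower. Fewer genes pass by construction in each case. The A1 counts moved by less than 1.5 times under every one of these limits. Of the 170 other list counts, 118 stayed within 1.5 times and 52 did not.

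No paired analysis was possible because the table has no values per sample. For the same reason leaving out each replicate, another normalization and a filter on counts were not run, and which sample decides a value cannot be known. Genes outside the table have no value at all, which limits every list count.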

Other observations

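Endothelial markers gave no common direction. Of 12 endothelial markers 4 were listed, with Kdr and Cdh5, a growth factor receptor and a cadherin of endothelium, higher by 2.08 (deposited standard error 0.18) and 1.11 (0.11), and Esam and Flt1 lower at -3.96 (0.64) and -0.98 (0.26) in the authors' deposited table. All 4 listed of 11 pericyte and smooth muscle markers were lower, and the contractile genes Acta2 and Tagln fell by 1.00 (0.12) and 0.79 (0.13) in the authors' deposited table.

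Steap4 and Sphk1 had nearly the same mean over all samples, 331 and 330 normalized counts, although the implied level of Steap4 was 587 in knockout and 75.4 in wild type and that of Sphk1 194 in knockout and 465 in wild type.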
